A study of Mus musculus with 35 samples.

Results

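The Hox genes of clusters A to D were described in irradiated mouse skin. A gene was taken as a member when its symbol was Hox followed by a cluster letter from a to d and a paralogue number, which 39 of the 36106 genes in the deposited table were. Of these, 23 had a paralogue number from 1 to 8 and 16 a number from 9 to 13. Bulk RNA sequencing covered 35 pieces of skin from 19 female mice of the inbred strain C57BL/6J, aged 10 weeks. The left flank had received 25 Gy, given at 3.6 Gy per min over 420 s, and was shaved afterwards. Of the samples, 16 were labelled radiated and 16 control, with 4 of each at weeks 1, 2, 3 and 4, and 3 were sham skin from mice without radiation. Because 35 samples came from 19 mice and both kinds of skin carry the same numbers 1 to 4 within a week, same-numbered samples were taken to be from 1 mouse, so that the control skin would be unirradiated skin of an irradiated mouse. The place on the body from which control or sham skin was cut is not given in the sources used here. For genes whose level marks body position this matters: an effect of radiation and a difference in body site cannot be told apart in any comparison of radiated with control skin.

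Hox genes encode homeodomain transcription factors and lie side by side in clusters on different chromosomes. Within a cluster the order of the genes follows the order in which they are switched on along the body in the embryo, low paralogue numbers towards the head and high numbers towards the tail and the ends of the limbs. Adult skin fibroblasts keep a combination of Hox genes that reflects where on the body they came from, and Hoxc13 has a separate role in the hair matrix, where it drives hair keratin genes.

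On the mouse build GRCm38 the members lay in 4 clusters. Cluster A, with 11 members, lies on chromosome 6. Cluster B, with 10, spans chr11:96194316-96368256. Cluster C, with 9, spans chr15:102921103-103036852, and cluster D, also with 9, spans chr2:74668310-74765142. Some annotated gene models overlap: that of Hoxc5 runs from before the end of Hoxc10 past Hoxc6, that of Hoxa3 spans Hoxa4, Hoxa5 and Hoxa6, and those of Hoxd3 and Hoxd4 start together. Reads from the shared stretches cannot be assigned with certainty. Whether strand was used in counting is not given in the sources used here. It would not separate these genes, since those that overlap lie on the same strand.

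RefSeq promoter entries matched 22 of the 39 members. The 250 bases before the transcription start are shown for 3 genes of cluster A, all on the minus strand of GRCm38.p6. Hoxa2, a patterning gene of the hindbrain and its neural crest, and Hoxa5, a gene of the neck and thorax, both had lower levels in radiated than in control skin at week 4, while Hoxa10, a gene of the posterior trunk and uterus, did not pass the test there. The Hoxa2 window lies at chr6:52164832-52165081, that of Hoxa5 at chr6:52204588-52204837 and that of Hoxa10 at chr6:52240855-52241104. Capitals mark matches, on either strand, to TGATTNAT (a composite site of PBX and Hox proteins) or CCAAT (the box bound by NF-Y); no marked matches overlap.
Hoxa2: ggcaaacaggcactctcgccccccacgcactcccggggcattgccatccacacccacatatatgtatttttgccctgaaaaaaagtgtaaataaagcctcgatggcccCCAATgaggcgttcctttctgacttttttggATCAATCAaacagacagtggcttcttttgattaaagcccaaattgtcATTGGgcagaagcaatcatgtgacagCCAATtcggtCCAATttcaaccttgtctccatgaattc
Hoxa5: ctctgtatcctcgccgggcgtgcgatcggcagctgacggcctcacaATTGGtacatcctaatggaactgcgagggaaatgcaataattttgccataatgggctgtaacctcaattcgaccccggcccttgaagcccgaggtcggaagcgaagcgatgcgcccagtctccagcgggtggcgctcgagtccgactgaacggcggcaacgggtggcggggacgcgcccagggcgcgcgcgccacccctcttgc
Hoxa10: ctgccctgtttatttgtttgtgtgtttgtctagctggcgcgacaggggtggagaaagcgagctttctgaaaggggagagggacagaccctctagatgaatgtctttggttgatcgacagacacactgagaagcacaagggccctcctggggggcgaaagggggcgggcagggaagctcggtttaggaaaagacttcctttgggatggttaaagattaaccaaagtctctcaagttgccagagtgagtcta
The Hoxa2 window held 1 match to TGATTNAT, which 3.0% of 27025 RefSeq promoter windows contain, and 4 matches to CCAAT, which 34.5% contain. The Hoxa5 window held 1 CCAAT match and the Hoxa10 window held neither motif. TATAAA, the TATA box, found in 13.0% of windows, and TTTATG, a motif of caudal and posterior Hox proteins, found in 11.1%, matched none of these 3 windows on either strand. These matches describe the letters only.

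Averaged over the samples, skin held mainly members from the middle of the clusters. On the scale of CPM per kb, the gene's count scaled to a common library size (CPM) and divided by its exon length in kilobases, averaged over all 35 samples, the highest level was that of Hoxa7 at 22.0, followed by Hoxc8 at 17.9 and Hoxb6 at 14.9, all genes of the thorax and trunk. The order differed between groups: Hoxb6 came first in sham skin, at 34.5 CPM per kb, followed by Hoxa7 at 30.0, Hoxc13 at 25.3 and Hoxc8 at 21.3, while Hoxb6 led in radiated skin of week 3 and Hoxc8 in control skin of week 1 and radiated skin of week 4. Over all samples Hoxb4 followed at 8.43, Hoxd9 at 8.38 and Hoxc4 at 7.35 CPM per kb. At the head end, Hoxb1, a hindbrain gene, stood at 3.06 CPM per kb. At the tail end, Hoxa13, Hoxc12, Hoxd11 and Hoxd13 were each under 0.04 CPM per kb, while Hoxb13, Hoxd1 and Hoxd12 had 0 counts in all 35 libraries. A count of 0 allows up to 3 counts, which is 0.105 to 0.173 CPM at the depth of these libraries. Hoxc13 was the exception among the terminal genes, at 5.23 CPM per kb.

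**Figure D1:**
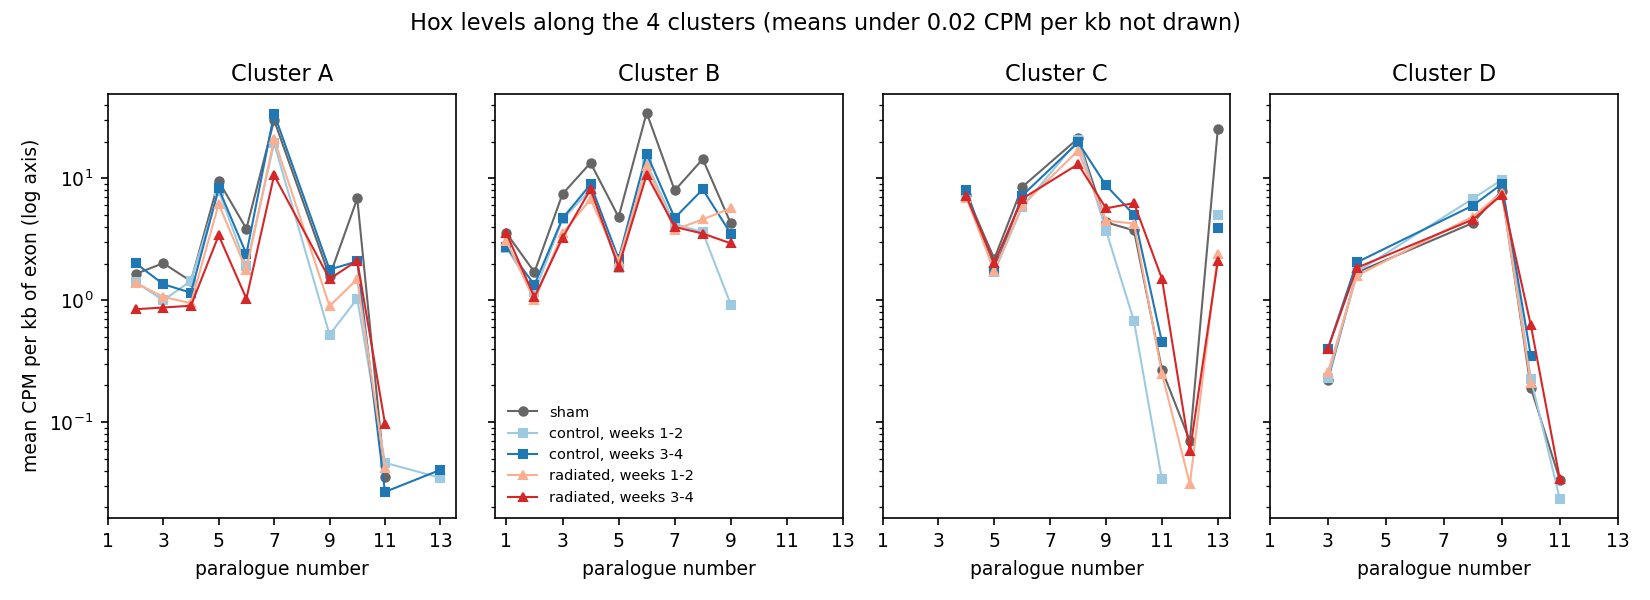
Mean level in CPM per kb of exon (log axis) against paralogue number in clusters A to D, for sham skin and for control and radiated skin in weeks 1 and 2 and in weeks 3 and 4; means under 0.02 are not drawn. Levels peaked in the middle of clusters A and B and fell off towards number 13 except in cluster C, where Hoxc13 was again high, and the pale blue line of control skin in weeks 1 and 2 is the lowest at Hoxb9, Hoxc10 and Hoxc11.

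The plot of levels along the clusters shows that control and radiated skin of weeks 1 and 2 lay close together over paralogues 1 to 8 and apart at the posterior end of clusters B and C. Keratinocyte markers were present in all samples, at a summed 6169 to 38630 CPM. Library totals ran from 17362725 to 28487795 counts, of which 4846 to 15422 were Hox counts. Of the 39 members, 31 passed the filter on low counts in the fit over all weeks: 22 with numbers 1 to 8 and 9 with numbers 9 to 13. The members below it were Hoxa11, Hoxa13, Hoxb13, Hoxc12, Hoxd1, Hoxd11, Hoxd12 and Hoxd13.

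Hoxb9 and Hoxc10 stood far higher in radiated than in control skin in weeks 1 and 2 and showed no such gap in weeks 3 and 4, when their level in control skin was higher than before. Hoxb9 (chr11:96271457-96276595) patterns the thorax and its ribs. In week 1 its level in control skin was 2.23, 3.47, 2.30 and 1.26 CPM in replicates 1 to 4, against 6.45, 7.30, 26.0 and 20.0 CPM in radiated skin. In week 2 it was 2.61, 2.80, 2.32 and 1.98 CPM in control and 8.75, 14.0, 17.3 and 16.8 CPM in radiated skin. The groups did not overlap in either week, and the lowest radiated sample was above the highest control sample. In week 3 control skin held 3.46, 4.42, 10.4 and 10.8 CPM and radiated skin 7.21, 10.8, 7.91 and 6.43 CPM. In week 4 control skin held 5.09, 16.2, 10.1 and 11.9 CPM and radiated skin 8.58, 8.18, 4.06 and 7.09 CPM. The groups overlapped in both later weeks, and 5 of the 8 later control samples were above 10 CPM. Sham skin held 10.9, 14.7 and 7.37 CPM of Hoxb9, above every control sample of weeks 1 and 2.

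Hoxc10 (chr15:102966796-102971893), a gene of the lumbar region and hindlimb, also had separate groups in the early weeks. In week 1 control skin held 2.75, 1.90, 0.91 and 0.71 CPM and radiated skin 3.03, 4.02, 11.6 and 14.0 CPM. In week 2 control skin held 0.71, 1.81, 0.61 and 0.89 CPM and radiated skin 12.0, 6.46, 10.1 and 3.82 CPM. Again the groups were apart in both weeks, although radiated replicate 1 of week 1 was only just above the highest control. In week 3 control skin held 5.49, 10.9, 9.48 and 7.76 CPM and radiated skin 8.35, 5.69, 6.58 and 10.1 CPM. In week 4 control skin held 14.0, 10.5, 8.16 and 10.3 CPM and radiated skin 21.6, 12.3, 16.9 and 14.3 CPM. All 8 control samples of the later weeks were above all 8 of the earlier weeks, and the radiated and control groups overlapped. Sham skin held 7.91, 7.25 and 6.23 CPM.

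Hoxc11 (chr15:102954427-102957708), its neighbour and likewise a hindlimb gene, was near the limit of detection in early control skin. Control skin held 0.09, 0.10, 0 and 0.04 CPM in week 1 and 0.14, 0.04, 0.13 and 0 CPM in week 2. Radiated skin held 0.43, 0.11, 0.44 and 1.00 CPM in week 1 and 0.75, 0.29, 0.36 and 0.65 CPM in week 2. The 8 early controls held 0 to 3 counts each, at or under the floor of 3 counts, and 12 counts in all, against 87 in the 8 radiated samples. Radiated replicate 2 of week 1 held 2 counts, as did control replicates 1 and 2, so the week 1 groups are not separate in counts. Fitted fold changes of Hoxc11 against these controls depend on the prior count and are not given for weeks 1 and 2. In week 3 radiated skin held 2.51, 2.75, 0.15 and 0.51 CPM and control skin 0.40, 0.04, 0.79 and 0.29 CPM. In week 4 radiated skin held 2.82, 2.06, 9.13 and 4.37 CPM, control skin 0.58, 3.10, 1.28 and 0.85 CPM, and sham skin 0.62, 0.39 and 0.62 CPM. The radiated and control groups overlapped in both later weeks.

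**Figure D2:**
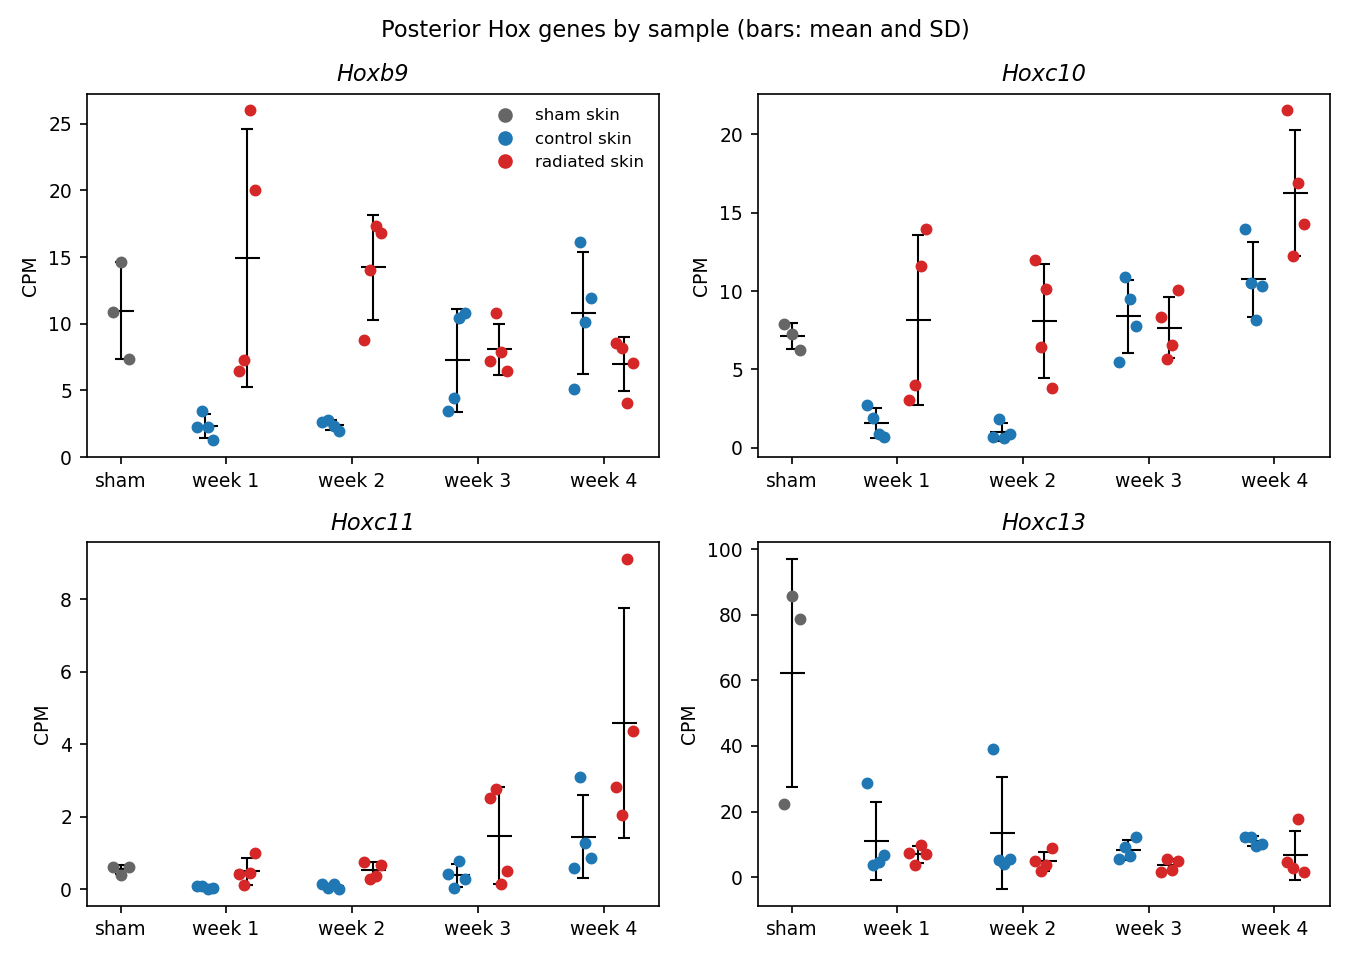
Level in CPM of Hoxb9, Hoxc10, Hoxc11 and Hoxc13 in each of the 35 samples, by group; points are samples and bars the mean and SD of 3 sham or 4 control or radiated samples. Radiated points stand above control points in weeks 1 and 2 for Hoxb9 and Hoxc10, control points stand near the radiated level from week 3 for Hoxb9 and Hoxc10, and Hoxc13 is highest in sham skin.

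In comparisons of radiated with control skin, rose and fell mean higher or lower in radiated than in control skin, not a change over time. The test of each week used edgeR's quasi-likelihood F test with Benjamini-Hochberg adjustment over all genes tested, and a gene was counted as differing at an adjusted p under 0.05. In week 1 it called 0 of 30 members, where 0% of the 17578 genes tested were called. With no adjustment 4 members had a p under 0.05, against 14.1% of all genes, and DESeq2 called 2. The log2 fold change in week 1 was 2.70 for Hoxb9 (SE 0.486, adjusted p = 0.171) and 2.39 for Hoxc10 (SE 0.568, adjusted p = 0.190), and all 4 pairs were higher in radiated skin for each. Ordered by p, Hoxb9 had rank 12 and Hoxc10 rank 126 of 17578; both had been picked as markers with earlier results known, so the ranks are a description.

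In week 2 the count was 1 of 29 members, Hoxb9, where 0.00577% of 17345 genes were called: Hoxb9 was the only gene in the table to pass. It rose by 2.55 on the log2 scale, a 5.84-fold difference (SE 0.264, edgeR adjusted p = 0.0363), in 4 of 4 pairs. Leaving out any of the 4 controls, or radiated replicate 3 or 4, ended this call, with the fold change staying between 2.43 and 2.72 and the adjusted p reaching 0.275 over all alternatives. Hoxc10 was 7.97-fold higher with an adjusted p of 0.118 and had rank 6 of 17345. With the mouse as a block, Hoxb9 (adjusted p = 0.00717) and Hoxc10 (adjusted p = 0.0215) both passed, where 3.7% of all genes did. Hoxc11 was below the filter in both weeks.

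When the contrast was limited to weeks 1 and 2, with 8 radiated and 8 control samples, 3 members passed. Hoxb9 rose by 2.61 (edgeR adjusted p = 0.00244) and Hoxc10 by 2.68 (adjusted p = 0.00682) on the log2 scale. The third, Hoxc11, entered this test only through its counts in radiated skin and is not read as a result. Among all 18357 genes tested there, 6.13% were called, 3.02% higher and 3.12% lower. No member with a number from 1 to 8 was called in these weeks. In weeks 3 and 4, a contrast added after the values were seen, 13 members were called, 2 higher and 11 lower, where 52.8% of all genes were, 27.1% higher and 25.7% lower. The 2 that rose were Hoxc11, by 1.81, and Hoxd10, a hindlimb gene, by 0.97. Hoxb9 stood at -0.23 there (adjusted p = 0.499) and Hoxc10 at 0.24 (adjusted p = 0.265).

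Muscle markers differed along with the early gap. The 12 skeletal muscle genes summed to 10540 to 24940 CPM in radiated and 27640 to 44930 CPM in control skin of week 1, and to 14070 to 27150 CPM against 30550 to 55410 CPM in week 2, with no overlap. The 8 adipocyte genes were apart in week 1, at 400 to 796 CPM in radiated and 910 to 1725 CPM in control skin. The sums of the fibroblast, keratinocyte, endothelial and leukocyte lists overlapped in both weeks, and no gene of these 6 lists passed the test in week 1 or week 2. Their part in the Hoxb9 and Hoxc10 differences was not tested.

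Whether the radiated-minus-control difference varied over the 4 weeks was tested with an F test of the week-by-radiation terms in 1 model of the 32 libraries. It called 5 of 31 members, or 6 with the mouse as a block, where 15.6% of all genes were called and 15.8% with the block. The members were Hoxb9 (edgeR adjusted p = 0.000318), Hoxa7 (0.000866), Hoxc10 (0.00194), Hoxa5 (0.0135) and Hoxa2 (0.0418), with Hoxb4 added by the block (0.0185). Without both samples of replicate 3 of week 4 the count was 3, where 2112 of all genes were called, beside 3013 with every sample. The weekly log2 fold changes were 2.70, 2.55, 0.18 and -0.63 for Hoxb9 and 2.39, 3.00, -0.11 and 0.61 for Hoxc10.

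Some posterior genes were higher in control skin of the later weeks than of the earlier weeks. In a comparison added after the values were seen, control skin of weeks 3 and 4 was set against control skin of weeks 1 and 2, 8 samples each. It called 7 of 31 members, all higher, where only 1.37% of 18192 genes were called, 0.539% higher and 0.83% lower. Of the 9 tested members with numbers 9 to 13, 5 were among them: Hoxc10 rose by 2.91 on the log2 scale (SE 0.288, edgeR adjusted p = 8.87e-05), Hoxb9 by 1.89 (SE 0.289, adjusted p = 0.00449), Hoxa9 by 1.58 (adjusted p = 0.000511) and Hoxa10 by 0.91 (adjusted p = 0.0171). The fifth, Hoxc11, entered only through the later controls, lost its call under 3 of 20 alternatives and is not read as a result. Hoxc9 stood at 1.19 (adjusted p = 0.121), with control replicate 4 of week 3 at 71.1 CPM, the other 7 later controls at 9.00 to 19.7 CPM and the earlier ones at 5.90 to 15.5 CPM. Hoxd10 stood at 0.49 (adjusted p = 0.526), Hoxd9 at -0.12 (adjusted p = 0.603) and Hoxc13 at -0.37 (adjusted p = 0.777), and none of these 4 was called. Hoxc10 had rank 5, Hoxa9 rank 9 and Hoxb9 rank 27 of 18192. The remaining called members were Hoxd3, a gene of the neck region, at 1.03 (adjusted p = 0.0413), a call lost under 12 of 20 alternatives, and Hoxa7 at 0.76 (adjusted p = 0.0164).

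Hoxa9, a gene of the lumbar trunk and of blood progenitors, shows the steps. Control skin held 1.77, 2.66, 2.77 and 3.15 CPM in week 1, 1.95, 4.95, 3.15 and 2.87 CPM in week 2, 3.87, 4.83, 6.97 and 4.795 CPM in week 3 and 17.3, 15.3, 11.5 and 15.1 CPM in week 4. The week 4 controls were above every earlier control, while week 3 overlapped week 2. The weeks used different mice, so week, mice and any difference in where control skin was cut cannot be told apart here. Of the marker lists, 0 of 12 dermal fibroblast, 0 of 9 keratinocyte and 0 of 9 leukocyte genes were called in the same comparison, and 1 of 12 skeletal muscle and 1 of 8 adipocyte genes were, both lower. The summed fibroblast markers were 2891 to 13850 CPM in the earlier controls and 1989 to 9503 CPM in the later ones. The summed muscle markers had a median of 36940 CPM in the earlier and 22390 CPM in the later controls, and the week 4 controls, at 1737 to 24680 CPM, were all below the earlier ones, at 27640 to 55410 CPM. The part of the muscle markers in the Hox values was not tested. Of 26 regional transcription factors outside the Hox clusters, 3 were higher in the later controls and 0 lower: Emx2 by 1.01 (edgeR adjusted p = 0.00217), Shox2 by 0.97 (adjusted p = 0.000256) and Prrx1 by 0.36 (adjusted p = 0.0340) on the log2 scale.

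In radiated skin the same comparison of weeks, also added afterwards, called 5 of 31 members, where 30% of 18752 genes were called, 15.1% higher and 14.9% lower. Hoxc11 rose by 2.36 (edgeR adjusted p = 0.00413), while Hoxa5 fell by 0.84, Hoxa7 by 0.96 and Hoxb9 by 0.95 on the log2 scale. The remaining called member, Hoxd10, entered only through the later radiated samples and is not read as a result. Its earlier radiated samples held 1 to 15 counts each. Hoxc10 was at 0.47 with an adjusted p of 0.280. The difference between the radiated and control changes was tested in the 32-library model: 5 of 31 members passed, all with a negative difference, against 19.8% of all genes, 9.6% positive and 10.2% negative. They were Hoxb9 at -2.83 (SE 0.421, adjusted p = 3.04e-05), Hoxc10 at -2.43 (SE 0.438, adjusted p = 0.000223), Hoxa7 at -1.72, Hoxa2 at -1.10 and Hoxa5 at -0.86. Hoxa9 and Hoxc11 were not among them. With the mouse as a block 6 passed, against 20.2% of all genes, Hoxa6 being added (adjusted p = 0.0394).

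Cell type markers moved in the same comparisons. In radiated skin of the later weeks, 6 of 12 fibroblast genes were higher and 2 lower. Of 9 leukocyte genes 5 were higher and 1 lower. Also higher were 6 of 6 endothelial and 10 of 16 hair follicle genes. Lower were 6 of 9 keratinocyte, 9 of 12 muscle and 4 of 8 adipocyte genes. The hair genes were high in few samples: they summed to 6297, 1191 and 293 CPM in 3 later radiated samples and to 25.5 to 89.0 CPM in the other 5, beside 36.3 to 151 CPM in the earlier ones. In the difference between the radiated and control changes, 5 of 12 fibroblast genes were positive and 1 negative. Of 9 leukocyte genes 2 were positive and 1 negative. Also positive were 6 of 6 endothelial and 15 of 19 hair follicle genes. Negative were 6 of 9 keratinocyte and 5 of 12 muscle genes, and 0 of 8 adipocyte genes passed. Their part in the Hox values was not tested.

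Averaged over all 4 weeks, 14 of 31 members differed between radiated and control skin, 4 higher and 10 lower. That share is near the background, since 48.5% of 19338 genes were called, 25.9% higher and 22.6% lower. By position, 3 of 9 tested genes with numbers 9 to 13 were higher and 2 lower, with a median log2 fold change of 0.28, while 8 of 22 with numbers 1 to 8 were lower, with a median of -0.23. The median over all genes was 0.06. Scaling by total counts instead of TMM moved the median of all genes by 0.12 and the split of called members to 5 higher and 7 lower.

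The posterior members higher over all weeks were Hoxc10 at 1.48 on the log2 scale (SE 0.220, edgeR adjusted p = 3.77e-06), Hoxb9 at 1.21 (SE 0.210, adjusted p = 2.94e-05) and Hoxc11, whose fold change is left out because it averages in the early controls at or under the floor. Radiated skin was higher in 14 of 16 pairs for Hoxc10 and in 11 for Hoxb9. Of all genes, 11% were higher in at least 14 pairs. No member had the same direction in all 16 pairs, where 1.84% of all genes were higher in all and 2.33% lower in all. The 10 lower members were Hoxa2, Hoxa4, Hoxa5, Hoxa6, Hoxa7, Hoxb3, Hoxc8, Hoxc13, Hoxd8 and Hoxd9, with log2 fold changes from -0.77 for Hoxa5 to -0.31 for Hoxd9, and Hoxc13 below them all. Hoxa4 lost its call under 14 of 28 alternatives and Hoxc13 under 6.

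**Figure D3:**
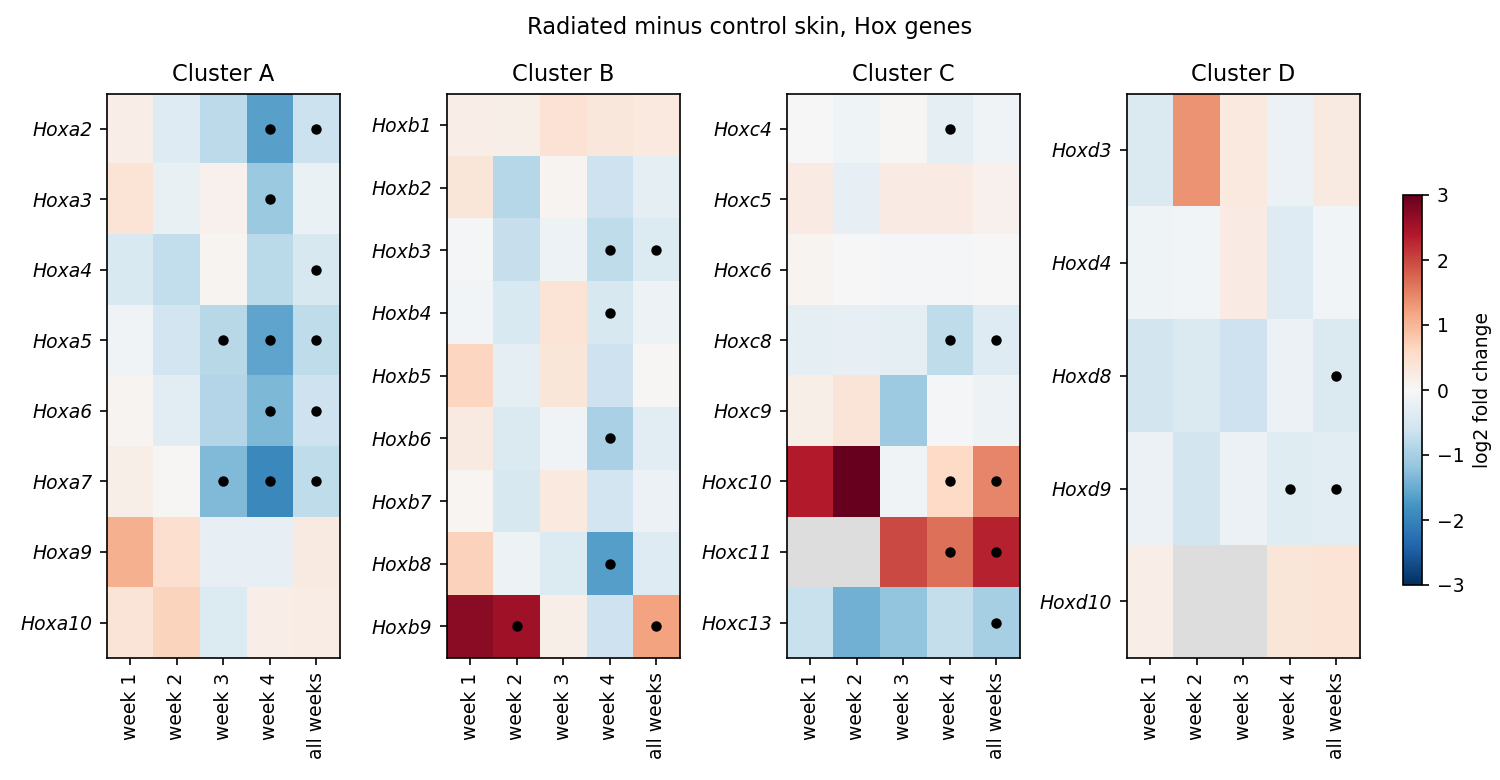
Log2 fold change of radiated minus control skin for 30 of the tested members in each week and over all weeks, by cluster; a dot marks an edgeR adjusted p under 0.05 and grey marks a gene below the filter. Red stands at the posterior end of clusters B and C in weeks 1 and 2, and blue with dots at numbers 2, 3, 5, 6 and 7 of cluster A in week 4.

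Hoxa5 and Hoxa7 were lower in radiated than in control skin in weeks 3 and 4, joined in week 4 by further anterior and middle genes. In week 3 the test called 2 of 30 members, Hoxa5 and Hoxa7, both lower, where 27.2% of 17653 genes were called, 13.6% in each direction. In week 4 it called 14 of 31, 2 higher and 12 lower, where 48.4% of 17850 genes were called, 24.2% in each direction. The share called was thus below the background in week 3 and close to it in week 4. Of the 22 tested members with numbers 1 to 8, 11 were lower in week 4 and 0 higher, and their median was -0.63, beside 0.02 over all genes and -0.06 over the 9 tested members with numbers 9 to 13.

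Hoxa7 (chr6:52214491-52221854), a gene of the trunk, had the lowest adjusted p of the members in week 4. In week 3 control skin held 66.6, 67.2, 70.4 and 86.5 CPM and radiated skin 14.7, 33.9, 24.6 and 41.9 CPM. In week 4 control skin held 99.9, 143, 131 and 116 CPM and radiated skin 24.9, 41.7, 38.1 and 23.7 CPM. Every radiated sample was below every control sample in both weeks. It fell by 1.31 on the log2 scale in week 3 (SE 0.281, edgeR adjusted p = 0.00901) and by 1.92 in week 4 (SE 0.199, adjusted p = 4.8e-05), a 3.8-fold difference. In weeks 1 and 2 Hoxa7 showed no such gap, at 0.10 on the log2 scale over both weeks (adjusted p = 0.802).

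Hoxa5 (chr6:52201754-52204587) showed the same gap. In week 3 control skin held 12.4, 11.9, 9.90 and 11.6 CPM and radiated skin 5.75, 5.69, 6.51 and 7.22 CPM. In week 4 control skin held 11.6, 21.5, 22.6 and 22.6 CPM and radiated skin 6.15, 7.72, 4.65 and 7.45 CPM. Control replicate 1 of week 4 was low among its group and still above all radiated samples. The log2 fold change was -0.83 in week 3 (SE 0.173, edgeR adjusted p = 0.00803) and -1.58 in week 4 (SE 0.242, adjusted p = 0.000495).

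Other cluster A members were also lower in radiated than in control skin in week 4. They were Hoxa2 by 1.62, Hoxa6, a trunk gene, by 1.34 and Hoxa3, which patterns the throat and thymus, by 1.12 on the log2 scale. Hoxa2 held 2.81, 4.29, 5.81 and 4.54 CPM in control and 0.85, 2.25, 1.59 and 0.94 CPM in radiated skin. Within cluster B, Hoxb8 fell by 1.66, Hoxb6 by 0.97, and Hoxb3 by 0.75 and Hoxb4 by 0.47, the latter pair genes of the neck. Within cluster C, Hoxc8 fell by 0.77 and Hoxc4 by 0.28, and in cluster D, Hoxd9, a gene of the lumbar trunk and limbs, fell by 0.37. Hoxc4 lost its call under 10 of 15 alternatives, Hoxd9 under 8 and Hoxb8 under 7. Hoxb8 rested on 3 high controls, at 42.9, 37.6 and 37.1 CPM, with the fourth at 5.41 CPM and radiated samples at 12.3, 12.8, 4.48 and 9.19 CPM. With the mouse as a block the count was 11, against 42.7% of all genes, and Hoxb8 (adjusted p = 0.109), Hoxc4 (0.102) and Hoxc11 (0.0591) no longer passed, while in week 3, where the block called 21.1% of all genes, Hoxc13 was added (0.0205). Of the 31 tested members, 10 had all radiated samples below all controls in week 4, where 23.3% of all genes did, and 0 had all above, where 22.8% did.

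Hoxc10 and Hoxc11 were the only members that rose in week 4, by 0.61 (SE 0.211, edgeR adjusted p = 0.0378) and 1.66 (SE 0.585, adjusted p = 0.0396). Both calls were at the edge: Hoxc10 lost it under 6 of 15 alternatives and Hoxc11 under 7. Without control replicate 4 the week held 9 called members, all lower, where 7571 of all genes were called, beside 8643 with every sample. Radiated replicate 3, the highest for Hoxc11 at 9.13 CPM, was also the highest of its group for Hoxa9, at 25.2 CPM against 7.51 to 8.53 CPM in the other 3.

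Cell type markers moved with the differences of weeks 3 and 4 too. In week 3, 9 of 12 muscle markers were lower, with sums of 3630 to 8913 CPM in radiated and 20100 to 38320 CPM in control skin, and 5 of 9 leukocyte markers were higher and 1 lower, with sums of 404 to 1305 CPM against 147 to 327 CPM. In the same week 3 of 12 fibroblast markers were higher and 2 lower, 4 of 9 keratinocyte markers lower and 1 higher, 2 of 6 endothelial markers higher and 2 of 8 adipocyte markers lower. In week 4 the 12 fibroblast markers summed to 24150 to 38170 CPM in radiated and 2092 to 4134 CPM in control skin, with 9 called higher and 1 lower. In addition, 6 of 9 keratinocyte markers were lower and 2 higher, 8 of 12 muscle markers lower and 1 higher, and 6 of 9 leukocyte markers higher and 2 lower. All 6 endothelial markers were higher, with sums of 403 to 550 CPM in radiated and 168 to 295 CPM in control skin. Summed leukocyte markers were 559 to 913 CPM in radiated and 122 to 138 CPM in control skin. Every gene of these lists had counts in at least 1 library, and their part in the Hox differences was not tested. In bulk skin, fewer cells of a type and less RNA per cell cannot be told apart.

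The make-up and the total of the Hox counts were also followed. Paralogues 9 to 13 made up 16.2%, 13.6%, 14.9% and 16.0% of the Hox counts in control skin of week 2 and 19.2%, 17.3%, 22.3% and 24.1% in radiated skin. In week 4 their share was 18.6%, 17.5%, 15.1% and 17.1% in control and 24.7%, 20.4%, 34.6% and 26.8% in radiated skin. Radiated samples were above all controls in both of these weeks, and the groups overlapped in weeks 1 and 3. The week 4 groups overlapped without Hoxa7 and Hoxd9, the most abundant member of each class, with radiated replicate 2 at 19.2% and control replicates 1 and 2 at 19.6% and 19.3%. They also overlapped as a difference of mean log2 CPM, at -1.46 in radiated replicate 2 and -1.35 and -1.30 in those controls. The share follows from the members' levels and carries no test of its own. In week 4 paralogues 9 to 13 held 1833 to 2926 counts in radiated and 1697 to 2642 in control skin, not scaled to depth. These ranges overlap. In week 2 the summed Hox level overlapped, with radiated skin at 264 to 339 CPM and control skin at 269 to 456 CPM. In week 4 the summed level was 355, 348, 354 and 311 CPM in radiated and 485, 613, 577 and 594 CPM in control skin, with no overlap. Over weeks 1 to 4 its mean was 394, 303, 272 and 342 CPM in radiated skin. In control skin it was 372, 339, 353 and 567 CPM. Sham skin had a summed 568, 629 and 607 CPM, near the week 4 controls.

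**Figure D4:**
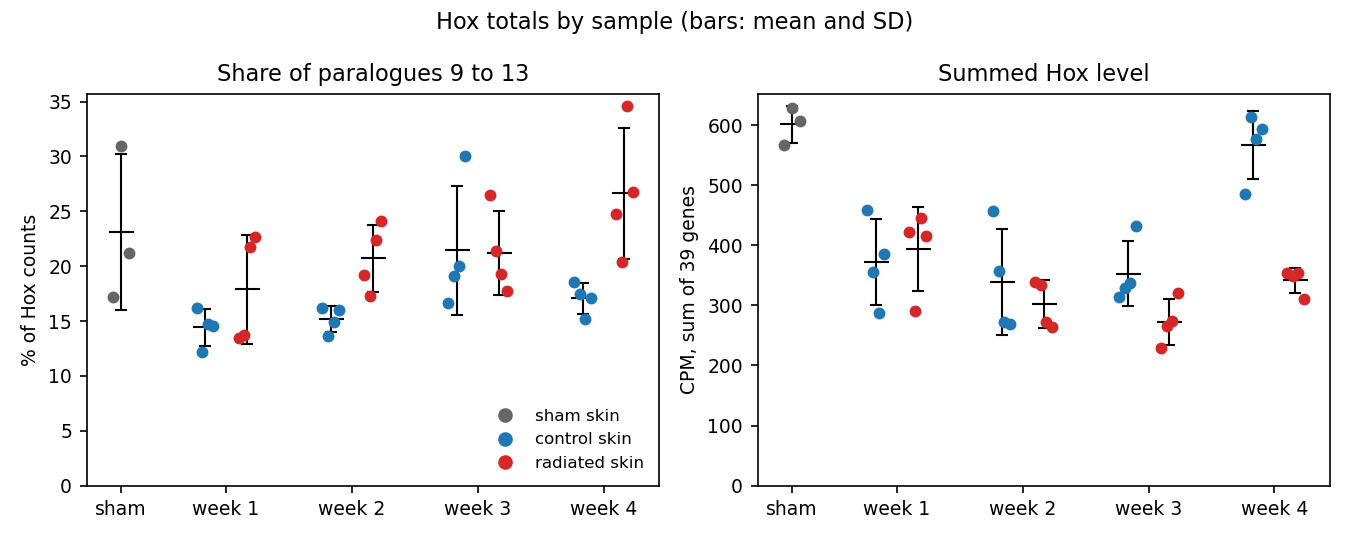
Percent of Hox counts from paralogues 9 to 13 (left) and summed CPM of the 39 members (right) in each sample, by group; points are samples and bars the mean and SD. Radiated points lie above control points on the left in weeks 2 and 4, and below them on the right in week 4, where radiated skin held 311 to 355 CPM.

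Hoxc13 (chr15:102921103-102928814), the hair matrix gene, was highest in sham skin and in 2 early controls. Sham skin held 22.2, 85.7 and 78.8 CPM. Among 16 controls it ran from 3.75 through a median of 7.99 to 39.1 CPM, with replicate 1 of week 1 at 28.8 and replicate 1 of week 2 at 39.1 CPM, far above the others of their groups. Radiated skin held 1.47 to 17.8 CPM. The 19 hair matrix, sheath and shaft genes summed to 2399, 31280 and 37300 CPM in sham skin, to 7832 and 2924 CPM in these 2 controls, and to 6297 CPM in radiated replicate 3 of week 4, the sample at 17.8 CPM of Hoxc13. Other samples with many hair gene counts had less Hoxc13: control replicate 4 of week 3 had 2069 CPM of hair genes and 12.3 CPM of Hoxc13, control replicate 4 of week 1 had 1559 and 6.90 CPM, and radiated replicate 4 of week 3 had 1191 and 5.01 CPM. In the median sample of the series they summed to 61.7 CPM.

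**Figure D5:**
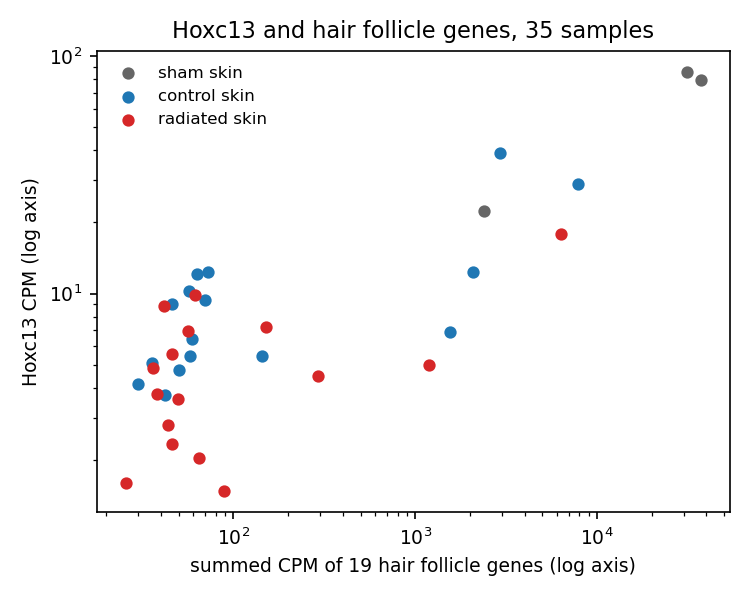
Hoxc13 level in CPM against the summed CPM of 19 hair follicle genes, both on log axes, in the 35 samples. The 3 sham samples, at 22.2 to 85.7 CPM of Hoxc13, and the 2 early controls with 28.8 and 39.1 CPM lie at the right and high.

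Hoxc13 was lower in radiated than in control skin over all weeks, by 1.004 on the log2 scale (SE 0.358, edgeR adjusted p = 0.0219), and higher in only 4 of 16 pairs. The weekly log2 fold changes were -0.67, -1.45, -1.18 and -0.72, and 0 of the 4 weeks passed the test by itself. The 19 hair genes had 0 called higher and 1 lower in the same contrast. In week 4, with Hoxc13 at -0.72, 7 of 11 tested hair genes were higher and 0 lower, with sums of 43.7 to 6297 CPM in radiated and 56.8 to 72.4 CPM in control skin, which overlap. In weeks 1 and 2 alone the adjusted p for Hoxc13 was 0.231. Whether the hair genes' level accounts for the difference was not tested.

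Against sham skin, which came from other mice, radiated skin had 13 of 31 members lower and 0 higher, where 18.7% of 19453 genes were called, 8.76% higher and 9.9% lower. Control skin had 9 of 31 lower and 0 higher, where 13.9% of 18878 genes were called, 6.03% higher and 7.9% lower. Both comparisons share the 3 sham samples, so their values are not independent. Hoxc13 stood at -3.54 in radiated skin (SE 0.464, edgeR adjusted p = 0.000159) and at -2.53 in control skin (SE 0.516, adjusted p = 0.00421). Cluster B supplied 6 of the 13 lower members of radiated skin: Hoxb3, Hoxb4, Hoxb5, Hoxb6, Hoxb7 and Hoxb8, between -1.88 for Hoxb8 and -0.86 for Hoxb4. In control skin Hoxb5, Hoxb6, Hoxb7 and Hoxb9 were lower, Hoxb9 by 1.26 and Hoxc10 by 1.04 on the log2 scale. This contrast averages early and later controls. Hoxb9 held 1.26 to 3.47 CPM in controls of weeks 1 and 2, and 3.46 to 16.15 CPM in later ones. Sham skin held 7.37 to 14.7 CPM. In the same order, Hoxc10 held 0.61 to 2.75, 5.49 to 13.95 and 6.23 to 7.91 CPM. For both genes only the early controls were all below sham skin. In radiated skin Hoxb9 and Hoxc10 were not called against sham.

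Sham replicate 2 weighs on these values. Hoxa10 held 7.25, 56.5 and 3.35 CPM in sham skin and stood at -2.05 in radiated and -2.26 in control skin against it. Without that replicate it was at 0.07 in radiated (adjusted p = 0.954) and -0.20 in control skin (adjusted p = 0.682). The count of lower members in control skin was 4 without sham replicate 2 or without sham replicate 3, and 15 without control replicate 1 of week 2. The genes called in the whole table numbered 1352, 750 and 3863 in these fits, beside 2631 with every sample. All 19 hair follicle genes were lower against sham in both comparisons. In radiated skin 7 of 12 fibroblast, 4 of 6 endothelial and 6 of 9 leukocyte markers were higher and 2 of 9 keratinocyte markers lower, and 1 of 12 muscle markers passed in each direction. In control skin 4 of 6 endothelial, 3 of 8 adipocyte, 2 of 9 keratinocyte and 1 of 12 fibroblast markers were higher and 0 lower. The part of these markers in the Hox values was not tested.

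Partners and regulators of Hox proteins were also measured. The TALE homeodomain proteins, which bind DNA together with Hox proteins, had 3 of 9 genes higher over all weeks (among them Meis3 at 0.53 and Pbx3 at 0.32 on the log2 scale) and 3 lower (Pknox2 at -0.58, Meis1 at -0.25 and Pknox1 at -0.14). Their median was -0.14, beside 0.06 over all genes, of which 25.9% were called higher and 22.6% lower. Of the 18 Polycomb and trithorax genes, whose products keep Hox clusters silent or active, 11 were lower and 1 higher, beside the same 22.6% and 25.9% of all genes, with a median of -0.25: Cbx7 fell by 0.96, Cbx2 by 0.66 and Rnf2 by 0.47, and Phc1 rose by 0.36. Gdf11, a signal that switches on posterior Hox genes in the embryo, was the only gene tested of 4 in its list and was at 0.12 over all weeks. Its weekly log2 fold changes were -0.63, -0.49, 0.03 and 1.55, the last called (edgeR adjusted p = 0.000583), and its radiated-minus-control difference rose by 1.36 from weeks 1 and 2 to weeks 3 and 4 (adjusted p = 0.000662). Of the 16 non-coding RNAs listed for the Hox clusters, Hotair among them, 0 were in the deposited table under the listed symbols, so they were not analysed.

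Other transcription factors that mark a region of the body were mixed: 5 of 26 tested rose and 4 fell over all weeks, with a median of -0.13, where 48.5% of all genes were called. Twist2, a dermal fibroblast factor, rose by 1.66 (SE 0.192, edgeR adjusted p = 9.48e-08), En1, a marker of the dorsal dermal lineage, by 0.73 and Prrx1, a mesenchymal factor, by 0.60. Sim1 fell by 0.86 and Tbx15, which marks the boundary of back and belly coat, by 0.58. The limb identity genes did not pass over all weeks: Tbx4, of the hindlimb, was at -0.07, Tbx5, of the forelimb, at -0.14 and Pitx1, of the hindlimb, at 0.50 (adjusted p = 0.17). In single weeks only Tbx5 of these 3 was called, lower in week 4 at -0.77 (edgeR adjusted p = 0.0353). Over the same contrast 8 of 12 fibroblast markers were higher and 11 of 12 skeletal muscle markers lower, and the part of these cell types in the values of the regional factors was not tested.

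Genes with the same direction in all 16 pairs at a mean of at least 1 CPM numbered 346 higher and 448 lower, and 0 of them were Hox genes. The largest increases among them were those of Krt6b, a wound keratin, at 9.08 on the log2 scale, Cstdc5, Sprr2a2, a cornified envelope gene, Gm10800 and Lce3c. The largest decreases were those of Mstn, which restrains muscle growth, at -3.60, Mrgprb9-ps, Pvalb and Actn3, both of fast muscle fibres, and Tgm7. Some Sprr and cystatin genes have near-identical copies, so that their counts are uncertain.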

How the data were processed

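Total RNA of skin biopsies had been extracted with an RNeasy kit and sequenced by a commercial provider, per the labels' protocols. Trim Galore 0.6.7, kallisto 0.46.2 and the build mm10 stand in the submitters' processing notes. The values deposited by the authors are estimated counts per gene, not scaled between samples, and 29.5% to 32.5% of the values in a sample were not whole numbers. They were rounded here. Intervals and floors cover counting error only. The p-values measure the spread between samples, taken as 1 of each kind of skin per mouse.

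The tests were run in edgeR 4.0.16 under R 4.3.3 (filterByExpr, TMM scaling, quasi-likelihood F test, Benjamini-Hochberg adjustment over all genes tested, adjusted p under 0.05). Each week was fitted on its own, all weeks in 1 model of 32 libraries, and each kind of skin with sham in a separate model. The standard error is the size of the log2 fold change divided by the square root of F. CPM was computed on TMM-scaled libraries, with a prior count of 2 for log2 values. The same steps were tested on simulated data with 200 changed genes. Over all weeks 85% of 2-fold and 95% of 4-fold changes were recovered among 19338 genes, and 6.2% of calls were unchanged genes. In week 1 22% and 79% were recovered among 17578 genes, and 10.6% of calls were unchanged genes. In the real data 48.5% of genes were called over all weeks, so these figures need not carry over to that contrast. Alternatives were RLE and total-count scaling, no filter, DESeq2 1.42.0, limma-voom 3.58.1, a block for the mouse and 1 model of all 35 libraries. Other sets of weeks were also used, and each sample was left out, or both samples of a mouse in the 32-library model.

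Same-numbered samples of a week were taken as 1 mouse because 19 mice gave 35 samples. The mean correlation of their deviations from the group means was 0.08, 0.18, 0.05 and -0.02 in weeks 1 to 4, against -0.03, -0.06, -0.02 and 0.01 for other numbers.

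Positions and exon lengths are those of GENCODE M21, and promoters are RefSeq's on GRCm38.p6. Members named are those called over all weeks or in any week, and Hoxb9, Hoxc10 and Hoxc13; of each other list, up to 3 called genes in each direction, and Tbx4, Tbx5, Tbx15, Pitx1 and En1; and the 5 genes with the largest rise and the 5 with the largest fall among those with 1 direction in 16 pairs. Some genes that the rule selects are not reported here. Other genes named, Emx2 and Shox2 among them, were chosen after their values were seen. The members, the lists and the comparisons were chosen with earlier results of these data known.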

Additional observations from a re-analysis of the deposited data

Results flagged for a closer look

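In 19 of 256 groups of 4 samples 1 sample lay apart from the other 3 by Dixon's ratio of gap to range; chance marks about 1 in 20 groups. Hoxc9, a gene of the thorax, was at 71.1 CPM in control replicate 4 of week 3 against 9.00 to 13.2 CPM in the others. In control skin Hoxc13 was at 28.8 CPM in replicate 1 of week 1 and 39.1 CPM in replicate 1 of week 2, both samples high in hair follicle genes. Hoxb8 was low at 5.41 CPM and Hoxa5 at 11.6 CPM in control replicate 1 of week 4. Other controls apart were Hoxa10 at 5.61 CPM and Hoxb5 at 2.99 CPM in replicate 2 of week 3, Hoxd9 at 15.8 CPM in replicate 3 of week 3, Hoxd9 at 23.7 CPM and Hoxc9 at 5.90 CPM in replicate 2 of week 2, and Hoxd3 at 2.19 CPM in replicate 1 of week 1.

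In radiated skin, Hoxa9 was at 25.2 CPM in replicate 3 of week 4 and at 1.67 CPM in replicate 3 of week 3. Replicate 4 of week 4 had Hoxd9 at 19.8 CPM, above its group, and the summed Hox level at 311 CPM, below it. In week 2 Hoxa3 was at 10.7 CPM in replicate 1, and Hoxa2 at 0.82 CPM and Hoxb8 at 5.56 CPM in replicate 4. The last was Hoxa6 at 1.47 CPM in replicate 4 of week 3.

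The radiated-minus-control difference varied between weeks for 5 of 31 members by edgeR's F test, close to the 15.6% of all genes: Hoxb9 (adjusted p = 0.000318), Hoxa7 (0.000866), Hoxc10 (0.00194), Hoxa5 (0.0135) and Hoxa2 (0.0418).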

How the results depend on the processing

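Over 73 fold changes of members and 1580 alternative values, 1440 kept their direction and their side of the threshold, 127 lost the call, 10 gained it and 3 reversed. Those that reversed were Hoxb9 over all weeks at -0.23 in weeks 3 and 4 only, Hoxa7 over all weeks at 0.10 in weeks 1 and 2 only, and Hoxa10, radiated against sham, whose leave-one-out range was -2.56 to 0.075; each rests on fewer samples. DESeq2 called 2 members in week 1, 3 in week 2 and 5 in week 3, and 416, 734 and 6023 of all genes. A model of all 35 libraries called 2, 2, 6 and 8 in weeks 1 to 4, and 23, 544, 6725 and 6941 of all genes. In week 2 limma-voom called 0 (edgeR 1, with 6 at an unadjusted p under 0.05, as were 13.8% of all genes) and the replicate block 2. Total-count scaling gave 1 higher and 2 lower in week 3, where it moved the median of all genes by 0.24, and 12 lower in control against sham skin, where it moved it by -0.15. Over all weeks 8 were called without week 4 and 3 in weeks 1 and 2 only, and 6104 and 1126 of all genes, beside 9377 with every week. The block left 14 over all weeks, and changed no call besides those given in the report. The cause was not tested.

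With single samples left out, the members called ranged from 0 to 2 in week 1 and in week 2, 2 to 4 in week 3, 9 to 16 in week 4, 12 to 15 over all weeks, 3 to 6 for the difference between weeks, 10 to 14 for radiated and 4 to 15 for control against sham, 5 to 7 for later against earlier controls and for later against earlier radiated skin, and 4 to 6 for their difference. The highest counts of weeks 1 to 3 came without radiated replicate 1 in week 1 (2), radiated replicate 2 in week 2 (2) and radiated replicate 2 in week 3 (4). The radiated-minus-control share of paralogues 9 to 13 was 8.99 percentage points in week 2 without Hoxa7 and Hoxd9, beside means of 20.7% and 15.2% with them, and the week 4 groups then overlapped. In week 3 its sign turned to positive, at 0.15 as a difference of mean log2 CPM, and with single samples left out it ran from -1.98 to 2.64, positive without radiated replicate 3 (0.42), radiated replicate 4 (0.96) or control replicate 4 (2.64). Depth limits Hoxc11 and the 8 members below the filter.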

Other observations

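Hoxd10, at 0.06 to 1.83 CPM, did not pass the filter in week 2 or week 3. Its mean in radiated skin was 0.38 CPM in weeks 1 and 2 and 1.14 CPM in weeks 3 and 4 (8 samples each), a difference not read as a result. In week 3 its level was 1.73, 0.28, 1.83 and 0.78 CPM in radiated and 0.40, 0.49, 0.14 and 0.51 CPM in control skin. Samples 1 and 3 were the high ones, and the same mice's controls included the lowest. Hoxa11, a gene of the forearm and uterus, was at 0.43 CPM on average in radiated skin of week 4 against 0.06 CPM in control skin, with 6, 3, 24 and 8 counts in the radiated samples.

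Ezh2, which adds the Polycomb mark, was at 0.04 on the log2 scale over all weeks and was not called, while Kmt2a, which keeps Hox genes active, fell by 0.40 (edgeR adjusted p = 6.63e-07). The 9 TALE genes summed to 361 to 398 CPM in radiated skin and 377 to 392 CPM in control skin of week 4.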
